A study of Mus musculus with 8 samples.

Results

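The cytokines IL-12, IL-23 and IL-27 are built from 5 subunits, and the data described here are the array signals of the 5 genes that encode them: *Il12a*, *Il12b*, *Il23a*, *Il27* and *Ebi3*. Every probe that carried one of these symbols was taken, which gave 6 of the 25697 probes on the array, for 5 of its 18138 gene symbols. *Il23a* had 2 probes and each of the others had 1. Of the 13868 probes detected on at least 2 arrays and therefore tested, 5 belonged to these genes, 1 for each gene.

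Each of these cytokines is a pair of chains, one a four-helix bundle and the other resembling a soluble receptor. The p35 chain (*Il12a*) joins the p40 chain (*Il12b*) to form IL-12, the p19 chain (*Il23a*) joins the same p40 to form IL-23, and the p28 chain (*Il27*) joins EBI3 to form IL-27. Macrophages and dendritic cells make them after microbial contact, IL-12 directing T cells towards IFN-γ production, IL-23 sustaining IL-17-producing T cells and IL-27 both promoting and limiting T-cell responses.

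To ask how loss of inducible nitric oxide synthase (iNOS, encoded by *Nos2*) bears on classical, or M1, macrophage activation, RNA was measured on 8 Illumina bead arrays, 2 for each of 4 groups. Bone marrow cells came from 8-week-old female mice labelled C57bl/6J, either wild type (WT) or deficient in iNOS (*iNOS*-/-), the latter the B6.129P2-Nos2tm1Lau/J line of the study's methods, whose *Nos2* is disrupted throughout the animal and not in macrophages alone. All 4 groups, the unstimulated ones included, had been kept for 7 days in GM-CSF (10 ng/ml), and the M1 groups then received LPS (200 ng/ml) with IFN-γ (10 ng/ml) for 6 h. Nothing in the labels tells whether a group's 2 arrays derive from separate animals, so p-values and SDs measure the spread between arrays, which may be technical.

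Values are scaled intensities, that is, the deposited probe intensity after scaling towards a common mean array, and the fits used their log2 with everything under 1 set to 1. A probe counted as detected on an array where its detection p-value, the share of negative control probes brighter than it, was under 0.05. Between 46.0% and 49.3% of probes were detected per array, and the median absolute log2 difference between the 2 arrays of a group was 0.16 to 0.19. A difference was called when limma's Benjamini-Hochberg adjusted p over the 13868 probes was under 0.05. Signals of different probes cannot be ranked against each other, so each subunit gene is compared only with itself across groups. Marker lists are also given as sums over their probes, in which bright probes weigh most. In cultures measured in bulk, fewer cells making a transcript and less transcript per cell cannot be told apart.

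In no state was the targeted gene's signal reduced in the groups labelled *iNOS*-/-. Scaled intensity of *Nos2* was 1.06 and -0.36 in WT unstimulated, 175 and 132 in WT M1, 1.94 and 3.61 in *iNOS*-/- unstimulated, and 184 and 206 in *iNOS*-/- M1. It was thus detected on all 4 M1 arrays and on none of the others. The *iNOS*-/- M1 pair lay above the WT M1 pair without overlap, and the difference was not called (log2 difference 0.36, SE 0.32, adjusted p = 0.397, limma). Between the unstimulated groups, both below detection, it was called higher in *iNOS*-/- (log2 difference 1.36, SE 0.32, adjusted p = 0.0260, limma). The probe's first base is transcript position 3546. The labels do not say which part of the gene is disrupted, so the probe may lie outside it, and every direction between genotypes below rests on the labels.

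The 8 macrophage markers of the list were detected in every group, and 6 of 6 T and NK cell markers in none. Between the M1 groups 24.2% of all tested probes were called higher in *iNOS*-/- and 24.3% lower. Beside these shares 3 of the macrophage markers were called higher: *Cd14* at 1.48, *Mertk* at 1.03 and *Emr1* at 0.45. Another 4 were called lower (*Cd68*, *Csf1r*, *Itgam* and *Fcgr1*), the largest fall being that of *Csf1r* at -1.25. The 9 dendritic cell markers summed to between 965 and 974 in WT unstimulated, 17040 and 17781 in WT M1, 13935 and 14850 in *iNOS*-/- unstimulated, and 39131 and 40626 in *iNOS*-/- M1, while *Flt3*, a defining receptor of dendritic cell precursors, was not detected in any group. Of the 8 dendritic cell markers tested, 6 were called higher in *iNOS*-/- M1 than in WT M1, beside 24.2% of all tested probes. In *iNOS*-/- unstimulated 7 were called higher than in WT unstimulated, beside 15.9%. *Itgax* was called in neither comparison (-0.41 and 0.38). Activation in WT also raised 7 of the 8, beside 20.2%. The chemokine gene *Ccl17* and the enzyme gene *Il4i1* made up most of the dendritic cell sum, at means of 10010 and 3393 in *iNOS*-/- unstimulated. Also called higher there than in WT unstimulated were *Zbtb46*, *Ccr7*, *Cd83*, *Fscn1* and *Ccl22*. Their log2 differences were 2.59, 3.55, 1.49, 4.07 and 3.77, respectively, *Ccl22* with 1 of 2 WT unstimulated arrays detected. The 7 matched granulocyte markers summed to 1129 to 1166, 1304 to 1423, 1639 to 1703 and 3760 to 3899 in the same order of groups, with *Mpo* not detected in any. Of the 6 tested, *S100a9* (2.39, adjusted p = 0.000166) and *S100a8* (1.39, adjusted p = 0.000386) were called higher in *iNOS*-/- M1 than in WT M1 by limma. The share of all tested probes called higher in that comparison was 24.2%. The 5 matched markers of dividing cells ran differently, at 507 to 576, 1632 to 1768, 1871 to 1896 and 674 to 682 in the same order of groups. The part of any of these lists in the subunit signals was not tested.

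*Il12a*, on chromosome 3, encodes p35, the chain that only IL-12 among these 3 cytokines contains. Its scaled intensity was -3.34 and -1.35 in WT unstimulated, 471 and 527 in WT M1, 6.50 and 2.88 in *iNOS*-/- unstimulated, and 2913 and 2889 in *iNOS*-/- M1. The transcript was at background in unstimulated WT cells, was detected on 1 of the 2 unstimulated *iNOS*-/- arrays, and was bright on all M1 arrays, with the *iNOS*-/- M1 pair well above the WT M1 pair and no overlap. It rose at least 88.2-fold on activation in WT (adjusted p = 0.000105, limma). In *iNOS*-/- cells the rise was 9.39 on the log2 scale (SE 0.37, adjusted p = 5.15e-05, limma), from a level with 1 of 2 arrays detected, and ran from 6.67 to 9.97 under the alternatives. Between the M1 groups *Il12a* was 5.82-fold higher in *iNOS*-/- (log2 difference 2.54, SE 0.37, adjusted p = 0.00369, limma).

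*Il12b*, on chromosome 11, encodes p40, which IL-12 and IL-23 share. Its scaled intensity was -1.85 and 1.35 in WT unstimulated, 11.7 and 6.87 in WT M1, 1.77 and 3.37 in *iNOS*-/- unstimulated, and 101 and 72.0 in *iNOS*-/- M1. No unstimulated array detected it, only 1 of the 2 WT M1 arrays did, and both *iNOS*-/- M1 arrays did, so the WT M1 level is at the edge of detection. The rise on activation in WT was called (log2 difference 2.95, SE 0.43, adjusted p = 0.00567, limma). No least fold is given for it, since 1 of the 2 WT M1 arrays did not detect the probe. The rise in *iNOS*-/- was at least 17.3-fold (adjusted p = 0.000455, limma). Between the M1 groups *Il12b* was 9.52-fold higher in *iNOS*-/- (log2 difference 3.25, SE 0.43, adjusted p = 0.00257, limma). With the floor raised to 16, above both WT M1 values, this log2 difference was 2.42 and still called (adjusted p = 0.000588, limma), while the rise in WT was 0.

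*Il23a*, on chromosome 10, encodes p19, the chain particular to IL-23. It had 2 probes, and the first 30 of the 50 bases are shown for the one that carries the values that follow.
*Il23a* probe at transcript position 746: tcagcccagacatctaccagttaattaacc
The probe at position 746 read 2.46 and 3.24 in WT unstimulated, 51.7 and 55.3 in WT M1, 3.63 and 4.17 in *iNOS*-/- unstimulated, and 251 and 223 in *iNOS*-/- M1. It was detected on all 4 M1 arrays and on no unstimulated array, and the 2 M1 groups did not overlap. It rose at least 9.47-fold in WT (adjusted p = 8.62e-05, limma) and at least 47.9-fold in *iNOS*-/- (adjusted p = 2.49e-05, limma). In *iNOS*-/- M1 it was 4.42-fold higher than in WT M1 (log2 difference 2.14, SE 0.17, adjusted p = 0.000512, limma). The other *Il23a* probe was detected on 1 array of the 8, in *iNOS*-/- M1, and was not tested.

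*Il27*, on chromosome 7, encodes p28, the chain that EBI3 holds in IL-27. Its scaled intensity was 7.92 and 2.79 in WT unstimulated, 503 and 473 in WT M1, 1.69 and 6.57 in *iNOS*-/- unstimulated, and 1745 and 1479 in *iNOS*-/- M1. In each unstimulated group 1 of the 2 arrays detected it and the 2 groups overlapped, whereas all 4 M1 arrays were bright and the *iNOS*-/- M1 pair lay above the WT M1 pair. The rise on activation was 6.70 on the log2 scale in WT (SE 0.77, adjusted p = 0.00270, limma) and 8.91 in *iNOS*-/- (SE 0.77, adjusted p = 0.000503, limma). Between the M1 groups the log2 difference was 1.72 with an SE of 0.77, and it was not called (adjusted p = 0.121, limma). The SD between arrays was 0.06 in WT M1 and 0.17 in *iNOS*-/- M1, against 1.06 and 1.39 in the unstimulated groups at background, and the fit pools all 4. On the 4 M1 arrays alone the same difference was called (adjusted p = 0.00963, limma).

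*Ebi3*, on chromosome 17, encodes the receptor-like chain of IL-27. Unlike the others it was detected on all 8 arrays, at 341 and 352 in WT unstimulated, 700 and 736 in WT M1, 479 and 434 in *iNOS*-/- unstimulated, and 2158 and 2367 in *iNOS*-/- M1. The order was WT unstimulated, *iNOS*-/- unstimulated, WT M1 and *iNOS*-/- M1, with no overlap between neighbours. The rise on activation was 2.07-fold in WT (log2 1.05, SE 0.10, adjusted p = 0.00142, limma) and 4.96-fold in *iNOS*-/- (log2 2.31, SE 0.10, adjusted p = 6.25e-05, limma). *Ebi3* was 3.15-fold higher in *iNOS*-/- M1 than in WT M1 (log2 difference 1.65, SE 0.10, adjusted p = 0.000276, limma).

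**Figure D1:**
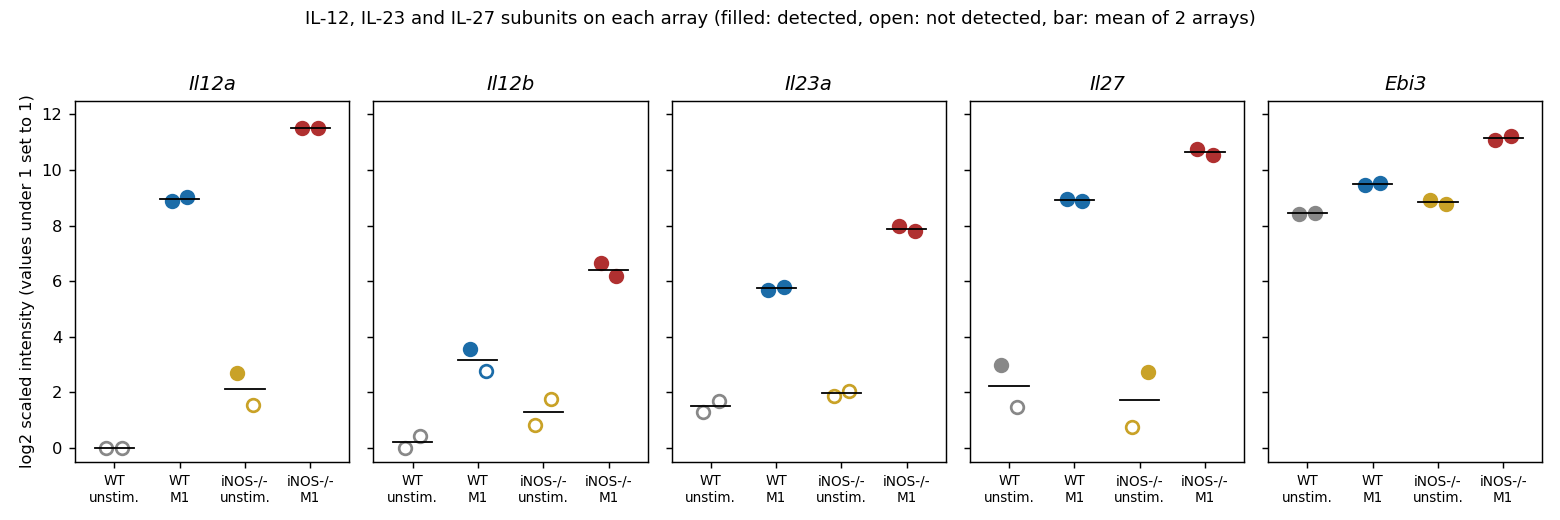
Log2 scaled intensity (vertical axis, values under 1 set to 1) of the 5 subunit genes on each array of the 4 groups, with *Il23a* given by its probe at position 746. Filled points are detected arrays, open points are not, and bars are means of 2 arrays. The *iNOS*-/- M1 pair is the highest in all 5 panels, and *Ebi3* alone is detected on all 8 arrays.

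Activation was called higher for 5 of the 5 probes tested in WT, where 20.2% of all tested probes were called higher, and for 5 of 5 in *iNOS*-/-, where 26.2% were. Probes of *Il12b* and *Il23a* passed the detection filter through M1 arrays alone, and those of *Il12a* and *Il27* with 1 or 2 unstimulated arrays besides, so these counts are a description of the genes and carry no weight of their own. The median log2 rise of the 5 was 4.24 in WT and 5.92 in *iNOS*-/-, beside medians over all probes of 0.07 and 0.04. Except for *Ebi3*, the fitted rises start from values near the floor and move with it. Under the alternatives that of *Il12a* in WT ran from 4.86 to 9.07 and that of *Il27* in WT from 4.51 to 7.42, all called. That of *Il12b* in WT ran from 0 to 3.36 and lost its call under 3 of 17 alternatives. Scaling the arrays on their 75th percentile moved the share of WT activation calls that were higher from 57.6% to 42.6% over all probes, and each of the 5 kept its direction under it.

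After M1 activation 4 of the 5 probes were called higher in *iNOS*-/-, where 24.2% of all tested probes were called higher and 24.3% lower. The probe of *Il12b* passed the detection filter only with its *iNOS*-/- M1 arrays, so its call adds no weight to this count. For all 5 the groups did not overlap, as for 37.9% of tested probes in that direction. The log2 differences ran from 1.65 (*Ebi3*) to 3.25 (*Il12b*), with a median of 2.14 beside 0 over all probes. *Il12a*, *Il12b*, *Il23a* and *Ebi3* were called under every alternative in which they could be tested, at log2 differences of 2.08 to 2.67, 2.09 to 3.63, 1.87 to 2.27 and 1.22 to 1.78, respectively. *Il27* stayed between 1.33 and 1.85 and was called under 5 of 18.

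**Figure D2:**
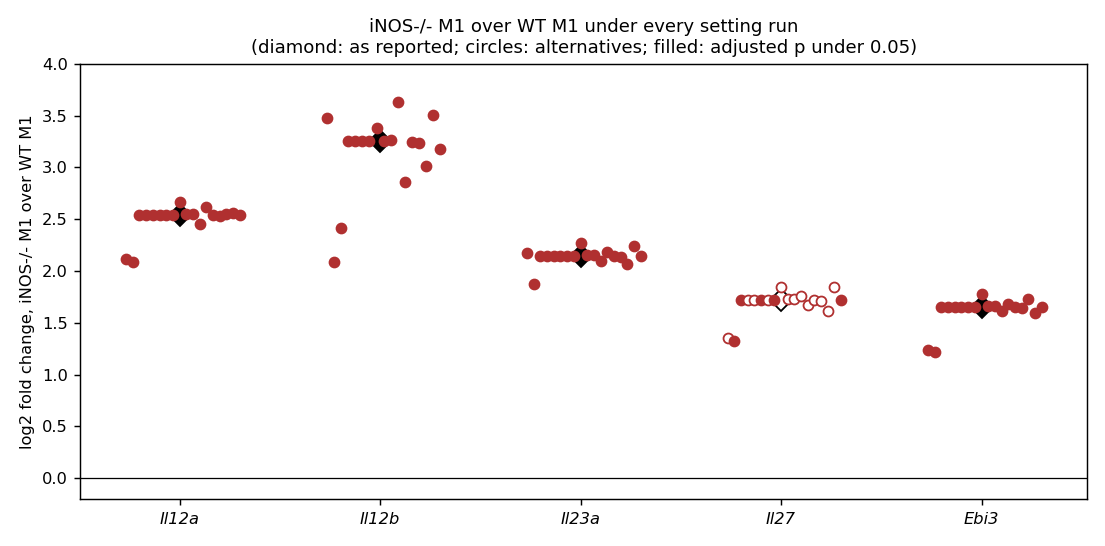
Log2 fold change of *iNOS*-/- M1 over WT M1 (vertical axis) for each subunit gene, as reported (diamonds) and under each alternative processing (circles). Filled symbols had an adjusted p under 0.05 in limma. Every value lies above 0, and open symbols occur for *Il27* alone.

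Before activation the subunits gave little to compare. *Ebi3* was 1.32-fold higher in *iNOS*-/- unstimulated than in WT unstimulated (log2 difference 0.40, SE 0.10, adjusted p = 0.0321, limma), a call lost when the 4 unstimulated arrays were fitted alone (adjusted p = 0.0714). *Il12a* was also called (log2 difference 2.11, SE 0.37, adjusted p = 0.0110, limma), but against a WT level at background no fold can be given, and the difference was 0 with the floor at 16. *Il12b* (1.07, SE 0.43, adjusted p = 0.118, limma), *Il23a* (0.46, SE 0.17, adjusted p = 0.0913, limma) and *Il27* (-0.50, SE 0.77, adjusted p = 0.671, limma) were not called. Of all tested probes, 15.9% were called higher in this comparison, against 2 of the 5 here.

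Whether activation raised a subunit further in *iNOS*-/- than in WT was tested as a difference of the 2 responses. *Ebi3*, measurable in every group, gave 1.26 on the log2 scale (SE 0.14, adjusted p = 0.00205, limma), its rise being that much larger in *iNOS*-/-. *Il23a* gave 1.68 (SE 0.23, adjusted p = 0.00411, limma) and *Il12b* 2.18 (SE 0.60, adjusted p = 0.0365, limma), the latter lost with the replicate number as a block (adjusted p = 0.0661) and when any of 6 of the 8 arrays was left out. *Il12a* gave 0.43 (SE 0.52, adjusted p = 0.557, limma) and *Il27* 2.22 (SE 1.08, adjusted p = 0.159, limma), neither called. In all, 3 of 5 were called higher, beside 20.8% of tested probes. *Il12b* is among them although its probe passed the detection filter only with the *iNOS*-/- M1 arrays. For every gene but *Ebi3* the unstimulated values lie near the floor, so the size of this difference depends on it: for *Il12a* it was 2.54 and called with the floor at 16 (adjusted p = 0.000119, limma).

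**Figure D3:**
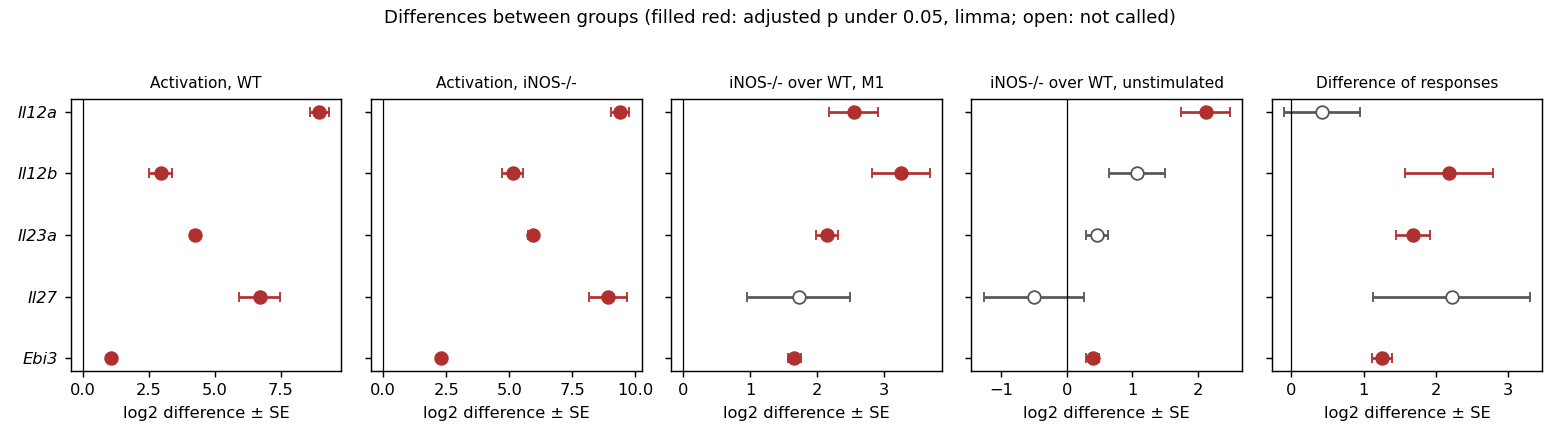
Log2 differences with SE (horizontal axes, each panel on its own scale) of the subunit genes in the 4 comparisons of groups and in the difference between the 2 activation responses, *iNOS*-/- minus WT. Filled red points had an adjusted p under 0.05 in limma. In the panel of *iNOS*-/- over WT after M1 activation the 5 points lie between 1.65 and 3.25, and *Il27* is the open one.

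The bases just before the transcription start are shown for the genes that the promoter table held, since these genes moved together on activation. RefSeq sequences (GRCm38.p6, forward strand, the 250 bases before the start) were found for *Il12a*, *Il12b* and *Ebi3*. Capitals mark GAGGAA or its reverse complement, the core read by PU.1, a transcription factor of myeloid cells.
*Il12b*, chr11:44399813-44400062: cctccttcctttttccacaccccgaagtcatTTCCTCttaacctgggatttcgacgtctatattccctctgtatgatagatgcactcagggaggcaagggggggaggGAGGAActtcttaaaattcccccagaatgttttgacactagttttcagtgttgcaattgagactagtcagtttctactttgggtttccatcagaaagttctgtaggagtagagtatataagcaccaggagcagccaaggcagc
*Ebi3*, chr17:55952373-55952622: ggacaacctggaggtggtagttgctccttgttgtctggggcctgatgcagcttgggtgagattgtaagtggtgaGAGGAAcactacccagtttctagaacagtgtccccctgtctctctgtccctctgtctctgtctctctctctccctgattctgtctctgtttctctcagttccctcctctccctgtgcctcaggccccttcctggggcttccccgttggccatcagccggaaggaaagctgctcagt
*Il12a*, first of 2 start sites, chr3:68690394-68690643: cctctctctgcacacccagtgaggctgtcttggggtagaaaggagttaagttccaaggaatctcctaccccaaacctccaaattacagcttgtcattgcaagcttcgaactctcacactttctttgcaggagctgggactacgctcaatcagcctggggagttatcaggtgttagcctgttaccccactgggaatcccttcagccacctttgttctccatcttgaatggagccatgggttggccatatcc
The PU.1 letters occurred at -219 to -214 and -143 to -138 from the start of *Il12b* and at -176 to -171 from that of *Ebi3*, and 23.3% of 32851 promoters of this length held them. On both strands 5 other patterns were searched: GAAANNGAA (interferon-stimulated response element), GGGNNTTTC (NF-kB), TTCNNNGAA (the STAT-bound GAS element), TGANTCA (AP-1) and TTNNGCAA (C/EBP). None of these letters was in the 4 windows of the 3 genes, and among all promoters 7.13%, 3.72%, 7.02%, 6.75% and 9.56% held them. Only exact letters were counted, so a site that departs from its pattern by a single base would be missed. The patterns do not overlap one another in these windows.

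Receptors for the 3 cytokines moved in both directions. Of 5 receptor chain genes 4 were tested, and between the M1 groups 2 were called higher and 1 lower in *iNOS*-/-. In that comparison 24.2% of all tested probes were called higher and 24.3% lower. These shares stand beside the counts of each list below as well. *Il12rb1*, the chain that the IL-12 and IL-23 receptors share, differed by 2.40 on the log2 scale (SE 0.72, adjusted p = 0.0416, limma) with 1 of 2 WT M1 arrays detected. Its probe passed the detection filter only with the *iNOS*-/- M1 arrays, so its call adds no weight to the count. *Il12rb2*, the second IL-12 receptor chain, was higher by 1.31 (SE 0.12, adjusted p = 0.000773, limma). *Il27ra*, the chain particular to the IL-27 receptor, was lower, at -1.34 (SE 0.11, adjusted p = 0.000570, limma). On activation it rose in WT (0.65, adjusted p = 0.00886, limma) and fell in *iNOS*-/- (-0.62, adjusted p = 0.00599, limma), a difference in response of -1.27 (SE 0.15, adjusted p = 0.00260, limma). *Il23r* was not detected in any group. *Il6st*, which encodes the gp130 chain used by IL-27, had a log2 fold change of 0.02 (SE 0.33).

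Below these receptors, 5 of 5 kinase and STAT genes were called higher in *iNOS*-/- M1 than in WT M1, beside 24.2% of all tested probes. *Stat4*, the STAT that IL-12 activates, differed most, by 3.15 (SE 0.39, adjusted p = 0.00215, limma). It was already higher in *iNOS*-/- unstimulated cells (4.49, SE 0.39, adjusted p = 0.00119, limma). The WT unstimulated level of *Stat4* was near the floor, with 1 of 2 arrays detected, so this size depends on the floor. *Jak2* (2.76, adjusted p = 0.000143, limma) and *Tyk2* (0.66, adjusted p = 0.00481, limma) were also higher in *iNOS*-/- unstimulated cells. *Jak1* was lower there (-0.81, adjusted p = 0.0297, limma) and *Stat3* was not called (-0.10). The response of *Jak2* to activation was smaller in *iNOS*-/- than in WT (-1.36, adjusted p = 0.00280, limma).

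Of the 7 genes that sense LPS and IFN-γ, 4 were called higher and 2 lower in *iNOS*-/- M1. *Cd14*, which hands LPS to its receptor, was higher by 1.48 (SE 0.13, adjusted p = 0.000731, limma). *Ly96*, which encodes the partner of the LPS receptor, was higher by 0.56 (SE 0.11, adjusted p = 0.0110, limma), and *Ifngr2*, one chain of the IFN-γ receptor, by 0.50 (SE 0.08, adjusted p = 0.00550, limma). Lower were the LPS receptor gene *Tlr4*, at -2.17 (SE 0.13, adjusted p = 0.000286, limma), and *Ifngr1*, the other IFN-γ receptor chain, at -2.15 (SE 0.11, adjusted p = 0.000219, limma). Neither *Tlr4* nor *Ifngr1* was called on activation in WT (-0.27, adjusted p = 0.172 and 0.26, adjusted p = 0.130, limma), and both fell in *iNOS*-/- (-1.83, adjusted p = 0.000282 and -2.13, adjusted p = 0.000104, limma). Their responses differed between genotypes by -1.56 (adjusted p = 0.00253) and -2.39 (adjusted p = 0.000518), respectively, by limma.

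Of the 10 transcription factors known to act at the subunit genes 9 were measured, and 6 were called higher and none lower in *iNOS*-/- M1. The NF-kB subunit gene *Rel*, known to drive *Il12b* and *Il23a*, was higher by 1.91 (SE 0.12, adjusted p = 0.000309, limma). *Nfkbiz*, encoding an NF-kB cofactor, was higher by 1.61 (SE 0.10, adjusted p = 0.000295, limma), and *Irf1*, an interferon-induced factor, by 1.45 (SE 0.10, adjusted p = 0.000406, limma). *Irf3* (0.25), *Irf5* (0.25) and *Cebpb* (0.19) were not called, at adjusted p-values of 0.0903, 0.0878 and 0.0953 from limma.

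Among known restrainers of their expression, 4 of the 5 tested (of 7 listed) were called higher and none lower in *iNOS*-/- M1. *Il10*, the anti-inflammatory cytokine, was detected in *iNOS*-/- M1 alone and was at least 2.52-fold higher there than in WT M1 (adjusted p = 0.0119, limma). Its probe passed the detection filter through that group alone, so its call and its place in this count carry no weight of their own. *Zc3h12a*, which encodes an RNase that degrades cytokine messages, was higher by 2.10 (SE 0.13, adjusted p = 0.000314, limma). *Atf3*, a repressor induced by LPS, was not called (-0.21, SE 0.13, adjusted p = 0.227). Of the related IL-6 family cytokines 3 of 5 tested were called higher, *Il6* by 1.89 (SE 0.19, adjusted p = 0.00107, limma).

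**Figure D4:**
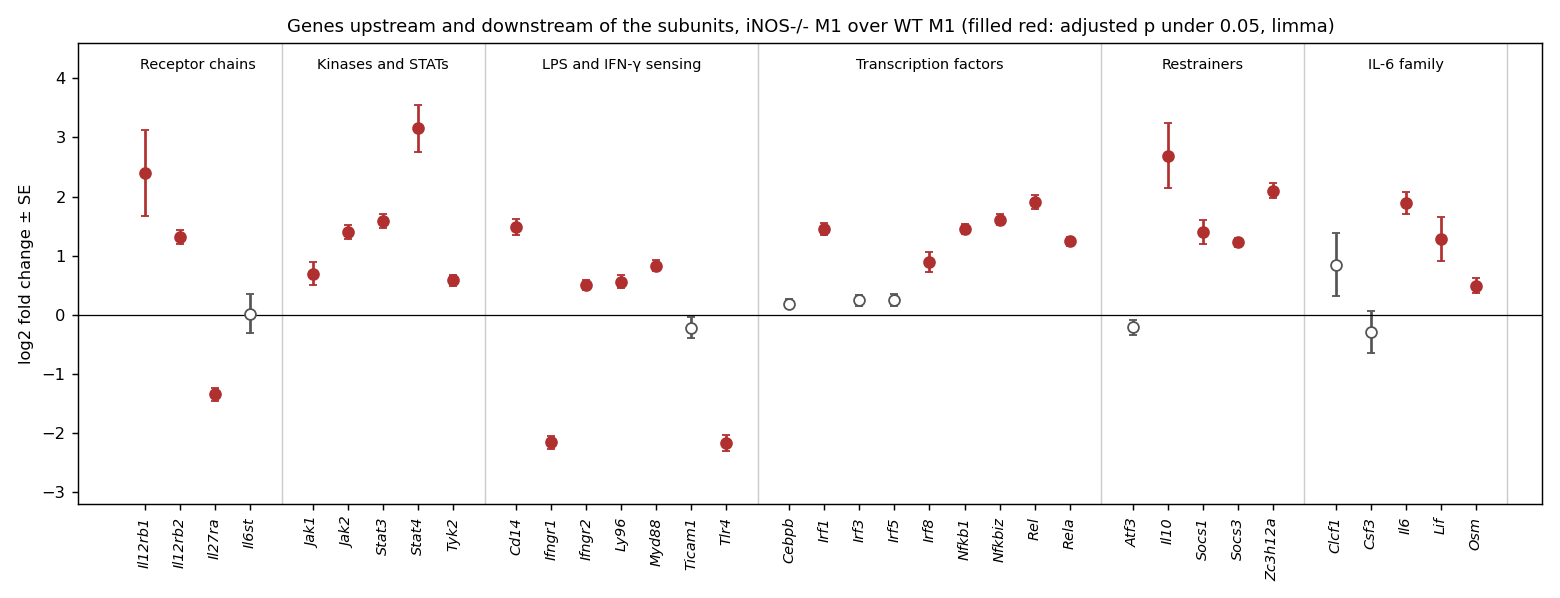
Log2 fold change with SE (vertical axis) of *iNOS*-/- M1 over WT M1 for the tested genes of 6 lists related to the subunits. Filled red points had an adjusted p under 0.05 in limma. All 5 kinase and STAT genes lie above 0, whereas *Il27ra*, *Ifngr1* and *Tlr4* lie below it at -1.34, -2.15 and -2.17.

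The genes whose profile over the 8 arrays lay nearest each subunit were found by the root mean square difference of log2 values, each gene centred on its own mean. These are descriptions over 8 arrays that share the same 4 groups and one scaling. Nearest to *Il12a* was *Il6* (0.51), nearest to *Il23a* were *Ifit2* (0.17), *Inhba* (0.27) and *Zbp1* (0.29), and nearest to *Il27* were *Fst* (0.58) and *Oasl1* (0.67). *Il12b* lay nearest *BC006779* (0.42), *Pla1a* (0.47) and *Tnc* (0.47), and *Ebi3* nearest *Cd1d1* (0.06), *Ogfr* (0.08) and *Saa3* (0.10). The other genes among the 3 nearest were *Serpina3f* (0.84) and *Cxcl10* (0.87) for *Il12a* and *Cxcl1* (0.91) for *Il27*.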

How the data were processed

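RNA of 4 groups was measured on 8 Illumina bead arrays, 2 for each group. The arrays are named MouseRef-8 in the series' design text and MouseWG-8 in the labels. The authors deposited the intensity of every probe without normalization between arrays, with its detection p-value. The submitters' processing notes name GenomeStudio and limma 3.14.4. The file header states no background subtraction, yet undetected intensities lie around 0, so none was applied here. The number of value columns without a sample was 0.

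A scale factor per array came from a robust line (MASS 7.3.60.0.1) through rank-invariant probes, those within 0.05 of their rank in the mean array and ranked between 0.5 and 0.9 of all. Values under 1 became 1 before log2. Tested probes had a detection p-value below 0.05 on 2 or more of the 8 arrays. One model of 4 groups was fitted in limma 3.58.1 (R 4.3.3) with Benjamini-Hochberg adjustment, after the procedure had been tested on simulated data. Where neither array of a group detected a probe, "at least N-fold" compares the bright group's mean log2 with that of the dim group after raising each dim array's value to its lowest detected intensity, and bounds under 1 are not given.

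The genes to be named were every member, *Nos2*, the largest changes of each list, and the 3 genes nearest each member. Other listed genes were named for their roles or after their values were seen. Among several probes of a gene the brightest was used. Members and lists were chosen with earlier results of these data known. The alternatives were quantile normalization, neqc, 75th percentile scaling, floors of 16 and at the lowest detected value, no or a stricter detection filter, the 4 arrays of a comparison, an intensity trend, the replicate number as a block and each array left out. Precision is limited by the number of arrays. A listed gene and the sequence of a probe are not reported here.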

Additional observations from a re-analysis of the deposited data

Results flagged for a closer look

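The log2 response to activation differed between genotypes for 3 of the 5 subunit genes by a test of that difference in limma. It was larger in *iNOS*-/- by 1.26 for *Ebi3* (adjusted p = 0.00205), by 1.68 for *Il23a* (adjusted p = 0.00411) and by 2.18 for *Il12b* (adjusted p = 0.0365). No unstimulated array detected *Il23a* or *Il12b*, so their sizes depend on the floor, at 2.14 and 2.42 with the floor at 16. The probe of *Il12b* also passed the detection filter only with the *iNOS*-/- M1 arrays. Over all the alternatives run, the adjusted p ran up to 0.0104 for *Ebi3*, 0.0185 for *Il23a* and 0.100 for *Il12b*. With 2 arrays in a group, no group was examined for single outlying arrays.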

How the results depend on the processing

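The labels do not say whether same-numbered arrays were paired. Over 9687 probes the deviations of same-numbered arrays correlated between -0.034 and 0.027. That shows no shared deviation in the signals, and cannot tell whether the cultures were handled in pairs. With the replicate block, *Il12b* lost the call on its difference in response (2.18, adjusted p = 0.0661) and *Ebi3* that between unstimulated groups (0.40, adjusted p = 0.0612). No other subunit call changed under it.

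Values near the background moved with the processing. The rise of *Il12b* in WT was not called under neqc (0.36), a floor of 16 (0) or a floor at the lowest detected value of all arrays (0.31), a setting chosen after seeing the data. The unstimulated difference of *Il12a* was not called under neqc (0.26), either floor (0) or the 4 arrays alone (2.11), and that of *Ebi3* not on the 4 arrays (0.40) or with 75th percentile scaling (0.32). The difference of responses of *Il12b* was lost without a detection filter (2.18, adjusted p = 0.0882). That of *Il12a* turned to -0.14 under quantile normalization, and was called under neqc (1.82) and either floor (2.54). That of *Il27* was called under neqc (1.40), a floor of 16 (1.72), an intensity trend (2.22) and the added floor (1.74). Between the M1 groups *Il27* was called under neqc (1.33) and, at 1.72, under either floor, the trend and the 4 arrays. The cause was not tested.

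With each array left out in turn, the difference of responses ran from -0.13 (without *iNOS*-/- unstimulated replicate 2) to 1.05 for *Il12a*, called at 1.05 without *iNOS*-/- unstimulated replicate 1 (adjusted p = 0.0135). It ran from 1.73 to 2.64 for *Il12b*, not called without any 1 of 6 arrays (adjusted p up to 0.100), and from 1.22 to 3.17 for *Il27*, called at 3.17 without *iNOS*-/- unstimulated replicate 2 (adjusted p = 0.0482). The unstimulated difference of *Ebi3* ran from 0.34 to 0.49 and was not called without any 1 of the 4 unstimulated arrays or WT M1 replicate 1 (adjusted p up to 0.147), so that 8 of 18 alternatives lost it. That of *Il12a* ran from 1.49 to 2.66 and was not called without either WT unstimulated array (adjusted p up to 0.0548). That of *Il27* ran from -1.46 to 0.49, turning to 0.22 without WT unstimulated replicate 1 and 0.49 without *iNOS*-/- unstimulated replicate 1. Counts of probes called ran from 2754 to 4493 (4447 with all arrays) between unstimulated groups, and from 3179 to 4909 (4867 with all arrays) for activation in WT. *Il12b* did not pass the stricter detection filter. Scaling on the 75th percentile moved the median of all probes by 0.12 between the M1 groups and to 0.20 in the difference of responses.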
